A study of Mus musculus with 24 samples.

Results

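A group of 6 genes of the forkhead family was followed through the developing jaws of mouse embryos: Foxc1, Foxc2, Foxd1, Foxd2, Foxf1 and Foxf2. They were taken by name, as every probe set that the array's annotation assigns to 1 of these symbols and to no other gene. This gave 10 probe sets for 6 genes, out of 45101 probe sets and 18194 genes on the array. Where a gene had more than 1 probe set, the one brightest on average across the 24 arrays stands for it, and the others are given beside it.

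Forkhead proteins are transcription factors that bind DNA through a winged-helix domain. In the embryonic face, members of the Foxc, Foxd and Foxf subfamilies are expressed in mesenchyme derived from the cranial neural crest. Foxd1, Foxd2, Foxf1 and Foxf2 are known there as genes that respond to hedgehog signals from the epithelium, and Foxc1 and Foxc2 are known for roles in the skeleton, the eye and blood vessels.

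Affymetrix arrays were hybridised with RNA from mandibles and maxillae of embryos at embryonic day 13.5, on a background labelled C57B6. The arrays labelled Tgfbr2 Knockout, called mutant here, came from embryos of a Wnt1cre;Tgfbr2fl/+ by Tgfbr2fl/fl cross that were recognised by their cleft palate and skull vault defect. Wnt1-Cre acts in the neural crest, so other cells of the jaw keep Tgfbr2, which encodes the type II receptor for TGF-beta. Controls were littermates, whose own Cre and floxed alleles are not given. Each jaw was split into a distal and a proximal end, which gives 8 groups of 3 arrays for 2 genotypes, 2 jaws and 2 ends. The labels do not say whether replicates were separate animals or pools, so the p-values cover no more than the spread among these samples. How much of that spread is technical is not known.

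Values are RMA expression levels on the log2 scale, where 1 unit is a doubling, and only differences within a probe set are compared. Tgfbr2 itself was 0.31 ± 0.0543 (SE) higher in mutants averaged over the 4 regions. The array's design places probes toward the 3′ end of a transcript, and their position against the floxed exon is not stated, so this level does not check the genotype labels, on which each genotype difference below rests. Facial mesenchyme markers were present in every group, with means of 6 genes from 11.38 to 12.25. The arrays sharing a genotype and a number, called a set, differed in RNA measures. The Gapdh probe sets differed from 3′ to 5′ end by 0.25 to 0.77 in mutant sets 1 and 3, against -0.07 to 0.16 in all other sets. Xist and Y-linked transcripts were both high in mutant sets 2 and 3, control set 1 and mutant set 1 had high Y-linked and low Xist levels, and control sets 2 and 3 the reverse. Within each genotype set 1 thus differed from sets 2 and 3, so the sets were not all repeats of 1 sample. A single array stood apart from its group: mutant distal maxilla array 1 had a mean of 5 cartilage markers of 11.99, while the other 5 distal maxilla arrays lay between 7.60 and 8.14. For the 6 genes, values without this array are given beside the called results and the values of the distal maxilla that it enters.

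Of the 6 chosen probe sets, 5 were brighter than the 40th percentile of their array on all 24 arrays. Foxf2 was brighter on 20. Its 4 dim arrays were both proximal maxilla arrays numbered 2 and both distal maxilla arrays numbered 3. All 6 genes passed the filter and were among the 13850 genes tested.

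Foxc2 gave the clearest pattern, high in proximal and low in distal tissue, and most so in the maxilla. In control maxilla, Foxc2 measured 6.89, 6.67 and 7.48 on distal arrays and 10.35, 9.67 and 10.44 on proximal arrays. The ends did not overlap, and the lowest proximal array was well above the highest distal one. The distal minus proximal difference of Foxc2 was -3.14 ± 0.435 (SE, limma, adjusted p = 0.000169), so the distal level was 0.114 of the proximal one. In the fit without mutant distal maxilla array 1, which enters only the shared spread here, its adjusted p was 1.04e-05. In mutant maxilla the distal arrays measured 9.55, 7.52 and 7.60 and the proximal arrays 11.27, 9.92 and 10.56. These arrays did not overlap either, but distal array 1, the array with high cartilage markers, lay close to the lowest proximal array. The difference was -2.36 ± 0.435 (adjusted p = 0.00347), and -3.03 (adjusted p = 0.000117) without that array. Without mutant set 3 it was -2.06 and missed the threshold (adjusted p = 0.0652).

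Foxc1, the paralog of Foxc2, followed the same order at smaller size. Its control distal maxilla arrays measured 9.36, 8.85 and 8.98, and the proximal arrays 10.79, 10.49 and 10.60. All proximal arrays exceeded all distal arrays, and the difference of Foxc1 was -1.56 ± 0.405 (SE, adjusted p = 0.0246). Its adjusted p was 0.00228 in the fit without mutant distal maxilla array 1. In mutant maxilla the distal arrays were at 10.81, 9.23 and 8.71 and the proximal arrays at 12.03, 10.45 and 10.54. Here the ends overlapped, because distal array 1 lay above proximal arrays 2 and 3. The mutant difference was -1.42 ± 0.405 (adjusted p = 0.0477), and -2.04 (adjusted p = 0.00108) without mutant distal maxilla array 1. The second Foxc1 probe set gave -1.73 ± 0.378 in control and -1.56 ± 0.378 in mutant maxilla, with adjusted p over all probe sets of 0.0156 and 0.0389. The Foxc1 calls were not stable to the loss of arrays: leaving out any 1 of the 3 control sets gave an adjusted p of 0.199 to 0.254 for the control difference. The mutant call was lost without any 1 control set and without mutant set 2 or 3 (adjusted p of 0.103 to 0.189).

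In the maxilla, distal minus proximal, 2 of the 6 genes were called in controls, both lower, where 6.06% of all genes were called and 2.69% were called lower. The mutants also gave 2 of 6, both lower, where 5.15% of all genes were called and 2.66% were called lower. The other 4 genes were not called in either genotype. Fewer cells of a type and less RNA per cell cannot be told apart in such bulk tissue.

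Cell type markers moved with the ends of the maxilla. In controls 4 of 5 cartilage markers were lower distally, with a median of -3.24 over the list, and its mean level was 7.60 to 8.14 in distal against 10.50 to 11.58 in proximal arrays. In the same comparison 4 of 5 neuronal markers were lower distally and 6 of 8 epithelial markers were higher. In mutants 0 of 5 cartilage markers were called (median -1.91) and 5 of 8 epithelial markers were higher distally. The mutant cartilage mean was 11.99 on distal array 1, the array that stood apart, and 7.99 and 7.68 on distal arrays 2 and 3. Mutant proximal maxilla arrays lay at 10.31 to 11.46. Over the 24 arrays, Foxc2 correlated with the mean of the cartilage markers at r = 0.83, and at 0.93 in the 12 maxilla and 0.86 in the 12 mandible arrays. Other lists were as close: in the mandible Foxc2 had 0.90 with pericyte and smooth muscle, -0.90 with epithelial and -0.87 with facial mesenchyme markers. In the maxilla it had 0.87 with neuronal markers. The arrays share regions and sets, so these are descriptions, and the part of cell composition in the Foxc differences was not tested.

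**Figure D1:**
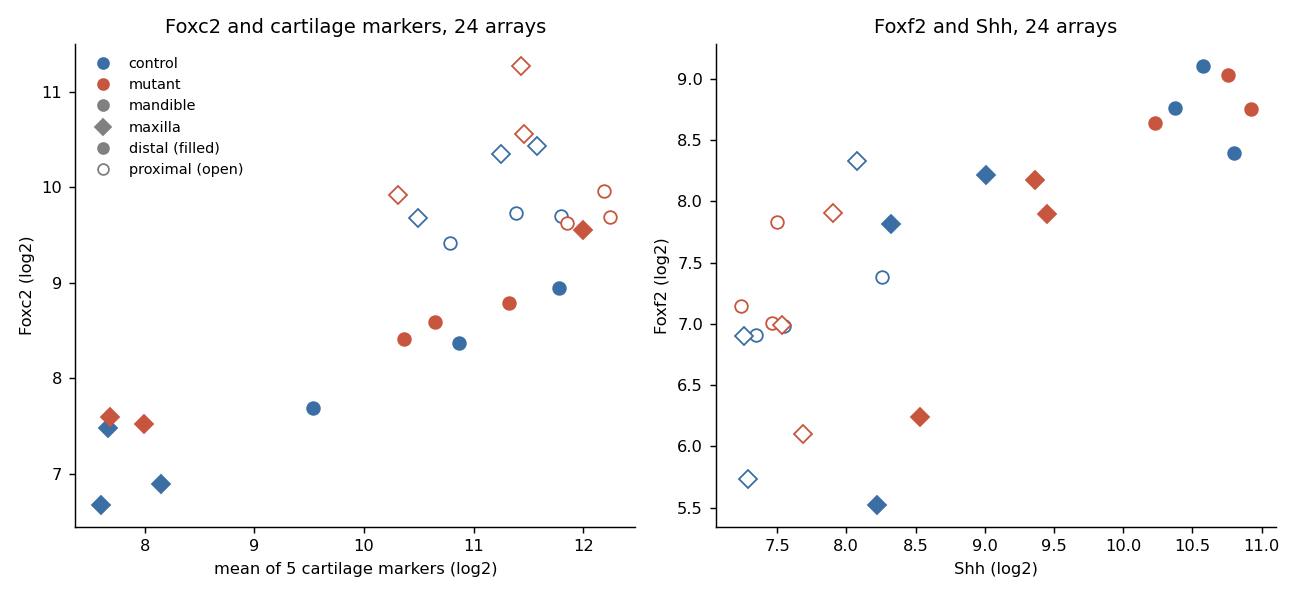
Left, log2 level of Foxc2 against the mean log2 level of 5 cartilage markers; right, Foxf2 against Shh. Each point is 1 of 24 arrays, with colour for genotype, shape for jaw and filled or open points for distal or proximal ends. On the left, mutant distal maxilla array 1 lies among the proximal arrays at a cartilage mean of 11.99, apart from the other 5 distal maxilla arrays. On the right, the 6 distal mandible arrays have the highest Shh levels.

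In the mandible the Foxc genes were also higher proximally on every pair of arrays. Foxc2 measured 7.69, 8.94 and 8.37 distally and 9.42, 9.70 and 9.73 proximally in controls. Mutants gave 8.79, 8.59 and 8.41 distally and 9.69, 9.62 and 9.96 proximally. In neither genotype did the ends overlap, yet the difference was -1.28 ± 0.435 in controls (adjusted p = 0.059) and -1.16 ± 0.435 in mutants (adjusted p = 0.0808), short of the threshold. Within a genotype the same-numbered arrays deviated together, and a fit with the set as a fixed replicate block, added after seeing the data, called Foxc2 in both (adjusted p = 0.0236 and 0.0329). Without mutant set 1 it also passed in both (adjusted p = 0.0064 and 0.025), as did Foxc1 (0.0057 and 0.00264), and without mutant set 2 in controls (0.0459). Foxc2 also passed in both without mutant distal maxilla array 1 (0.00913 and 0.0146). Foxc1 was at 9.14, 9.65 and 9.40 distally and 9.96, 10.34 and 10.20 proximally in controls. Mutant Foxc1 was at 9.57, 9.49 and 9.14 distally and 10.10, 10.32 and 10.46 proximally. Again the ends did not overlap, with differences of -0.77 ± 0.405 (adjusted p = 0.26) and -0.89 ± 0.405 (adjusted p = 0.16). The mutant Foxc1 value passed without mutant distal maxilla array 1 (adjusted p = 0.0449). In control mandible 0 of 5 cartilage markers were called between the ends, while 6 of 6 skeletal muscle markers were lower distally and 5 of 8 epithelial markers higher.

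The spread used in these tests came mostly from the maxilla. The residual SD of the members was 2.09 times (Foxc2) to 4.72 times (Foxf1) as large among maxilla as among mandible arrays, against a median of 1.11 over all genes. Over both jaws each member's residual SD was above that of 98.1% to 99.7% of genes. In the fit of all arrays, 0 of 6 genes were called between the ends of the control mandible, where 13.3% of genes were called, and 0 of 6 in the mutant mandible, where 15.9% were. By unadjusted p under 0.05, limma counted 2 of 6 in controls and 4 of 6 in mutants, where 3434 and 3776 of the 13850 genes passed. A fit of the 12 mandible arrays alone, also chosen after seeing the data, called 3 of 6 in controls (Foxc1, Foxc2 and Foxf2, 14.6% of genes called) and 5 of 6 in mutants (all but Foxf1, 17.1% called). The same fit of the 12 maxilla arrays called Foxc2 alone in controls (adjusted p = 0.0116, 3.1% of genes called) and 0 of 6 in mutants (1.96% called), where Foxc2 had an adjusted p of 0.0521.

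**Figure D2:**
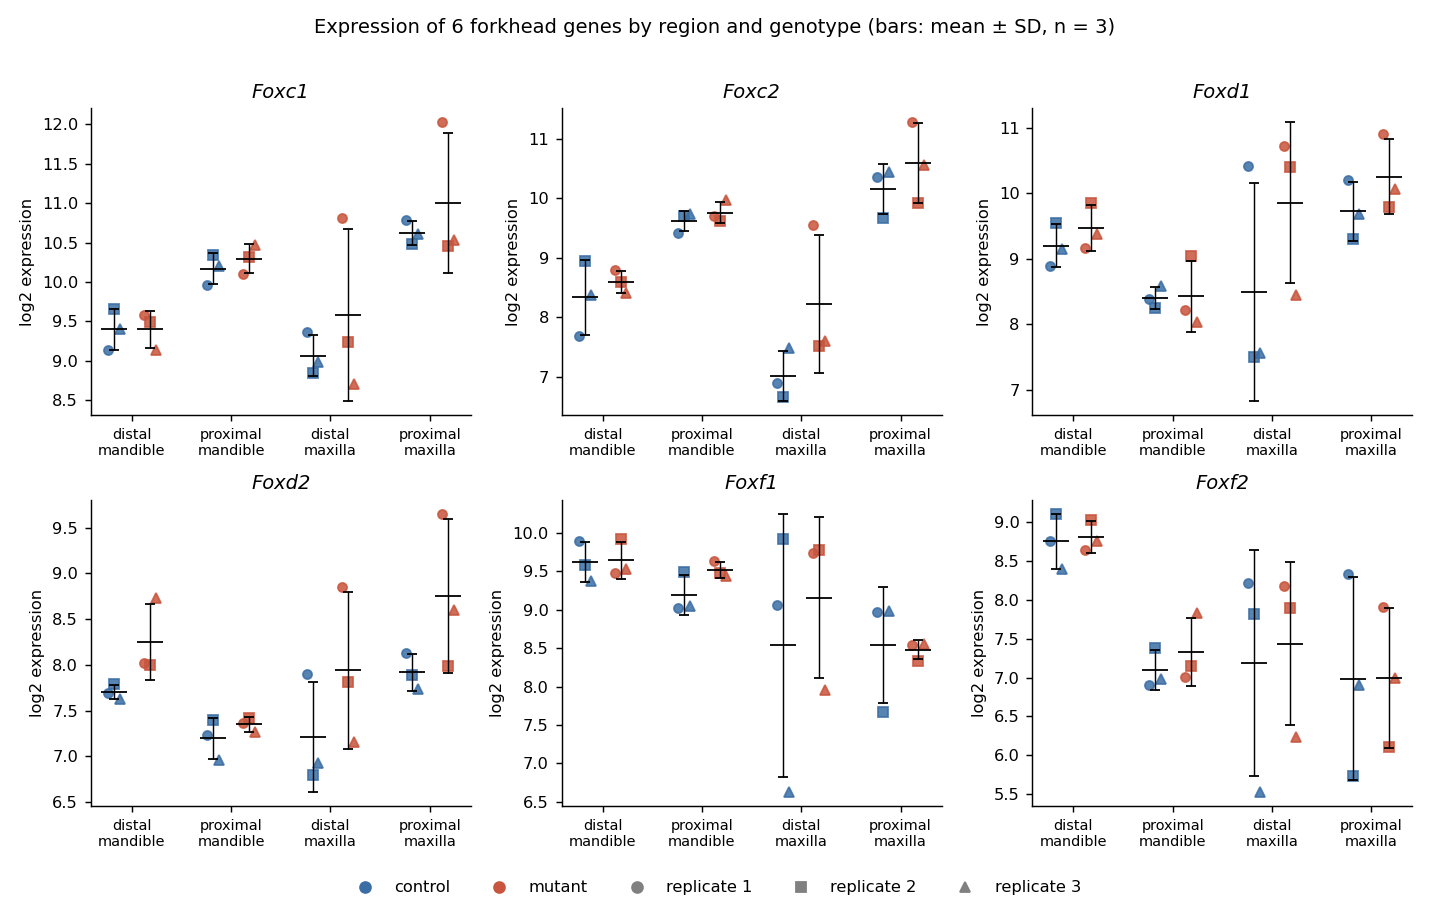
Log2 expression of the 6 forkhead genes, 1 panel per gene with its own axis. Points are single arrays (blue control, red mutant, shape by replicate number) in the 4 regions, and bars give mean ± SD of 3 arrays. Foxc1 and Foxc2 are higher at proximal ends in both jaws, Foxf2 is highest in the distal mandible, and maxilla arrays scatter more than mandible arrays.

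The promoter of Foxc1 and those of 3 other members are shown because members of a pair moved alike over the arrays. Promoter sequences were at hand for 4 of the 6 genes (build GRCm38.p6), and Foxc2 and Foxf1 are named only. Both members of a pair can thus be set side by side for Foxd1 and Foxd2 alone. The 250 bases before the start are printed 5′ to 3′ on the gene's strand. Capitals mark CCAAT and GGGCGG, searched on both strands, so ATTGG and CCGCCC are their reverse. Foxc1 lies at chr13:31806396-31806645 (plus strand), Foxd1 at chr13:98353995-98354244 (plus), Foxd2 at chr4:114908899-114909148 (minus) and Foxf2 at chr13:31625566-31625815 (plus).
Foxc1: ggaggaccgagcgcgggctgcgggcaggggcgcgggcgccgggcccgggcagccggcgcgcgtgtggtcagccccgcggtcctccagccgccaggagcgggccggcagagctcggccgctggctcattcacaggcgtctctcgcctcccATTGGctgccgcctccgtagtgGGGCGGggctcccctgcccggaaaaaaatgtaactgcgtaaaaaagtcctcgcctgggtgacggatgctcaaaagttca
Foxd1: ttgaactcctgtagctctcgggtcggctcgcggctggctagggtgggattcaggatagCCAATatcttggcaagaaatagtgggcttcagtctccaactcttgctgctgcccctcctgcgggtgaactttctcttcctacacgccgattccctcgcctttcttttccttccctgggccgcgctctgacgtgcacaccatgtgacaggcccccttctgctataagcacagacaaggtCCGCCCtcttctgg
Foxd2: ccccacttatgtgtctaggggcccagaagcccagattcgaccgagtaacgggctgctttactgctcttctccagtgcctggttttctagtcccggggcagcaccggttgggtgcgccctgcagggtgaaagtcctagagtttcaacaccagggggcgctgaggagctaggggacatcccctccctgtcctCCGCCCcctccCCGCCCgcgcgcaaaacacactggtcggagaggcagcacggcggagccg
Foxf2: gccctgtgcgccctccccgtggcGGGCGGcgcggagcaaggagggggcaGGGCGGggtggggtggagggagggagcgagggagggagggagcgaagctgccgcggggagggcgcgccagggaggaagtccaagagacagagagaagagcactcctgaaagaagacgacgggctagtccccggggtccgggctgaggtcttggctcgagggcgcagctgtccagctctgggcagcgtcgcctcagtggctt

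These windows held more CpG than the median of 6 over 32851 promoters, with 29 in Foxc1, 12 in Foxd1, 16 in Foxd2 and 21 in Foxf2. Of all promoters, 93.2% held fewer than Foxc1, 66.5% fewer than Foxd1, 74.6% fewer than Foxd2 and 83.7% fewer than Foxf2. GGGCGG, the GC box, occurred 1 time each for Foxc1 and Foxd1 and 2 times each for Foxd2 and Foxf2, and 32.7% of all promoters hold it. CCAAT occurred 1 time each for Foxc1 and Foxd1, and 33.8% of promoters hold it. TATAAA was in none of the 4 windows and in 12.4% of all promoters. The GLI site GACCACCCA (0.225% of promoters), the forkhead letters TGTTTAC (3.17%) and TAAACA (12.03%) and the SMAD element GTCTAGAC (0.167%) were not found in these 4 windows, which says nothing about the factors. The shorter SMAD letters GTCT were in all 4, as in 82.9% of promoters. On the chromosome, Foxq1, Foxf2 and Foxc1 lie in a row on chromosome 13, and Fendrr, Foxf1, Mthfsd, Foxc2 and Foxl1 on chromosome 8.

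Foxd2 had end differences of opposite sign in the 2 jaws. In the mandible it was higher distally on 6 of 6 same-numbered pairs, by 0.39 to 1.46. The control arrays measured 7.70, 7.79 and 7.63 distally and 7.24, 7.40 and 6.96 proximally, and the mutant arrays 8.02, 7.99 and 8.73 distally and 7.36, 7.42 and 7.26 proximally. In the maxilla Foxd2 was higher proximally on 6 of 6 pairs, with differences from -1.45 to -0.18. Control maxilla arrays were at 7.90, 6.80 and 6.93 distally and 8.13, 7.89 and 7.73 proximally, and mutant arrays at 8.85, 7.81 and 7.15 distally and 9.65, 7.99 and 8.60 proximally. The mandible ends did not overlap in either genotype, while the maxilla ends overlapped in both. No single end difference of Foxd2 passed the threshold (0.51 ± 0.388 and 0.90 ± 0.388 in control and mutant mandible, -0.71 ± 0.388 and -0.81 ± 0.388 in the maxilla). The mutant maxilla value was -1.27 without mutant distal maxilla array 1 (adjusted p = 0.0568).

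Averaged over both genotypes, the end difference of Foxd2 was 1.46 ± 0.388 larger in the mandible than in the maxilla (adjusted p = 0.0292). That of Foxc2 was 1.53 ± 0.435 larger, being less negative in the mandible (adjusted p = 0.0427). This comparison was added after the values were seen and called 2 of 6 genes, both higher, where 6.23% of all genes were called and 2.79% were called higher. Within a single genotype it called 0 of 6, where 2.73% of genes were called in controls and 1.32% in mutants. At an unadjusted p under 0.05 (limma) 3 and 1 of 6 passed, where 1814 and 1338 of the 13850 genes did. The comparison over both genotypes was not stable to the loss of sets: without any 1 control set neither gene passed (adjusted p of 0.0801 to 0.17 for Foxd2 and 0.149 to 0.157 for Foxc2). Without mutant set 3 neither passed (0.15 and 0.147), and without mutant set 2 Foxd2 passed (0.0335) and Foxc2 did not (0.0888). Without mutant distal maxilla array 1 both passed (adjusted p = 0.0036 for Foxd2 and 0.00112 for Foxc2). With the mean of both Foxd2 probe sets, the Foxd2 value was 0.64 (adjusted p = 0.135). In the same comparison 4 of 5 neuronal markers were called higher and 5 of 6 skeletal muscle markers lower, and their part was not tested.

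Jaws differed for Foxd2 at the proximal end of mutants. The mutant proximal mandible arrays (7.36, 7.42 and 7.26) all lay below the mutant proximal maxilla arrays (9.65, 7.99 and 8.60), and mandible minus maxilla was -1.40 ± 0.388 (adjusted p = 0.0378). This was 1 of 6 genes called, where 5.69% of all genes were called and 2.96% were called lower. Without mutant set 1 the value was -0.96 (adjusted p = 0.159), and without any 1 control set, mutant set 3, or with the mean of the probe sets it also missed the threshold. It passed with the replicate number as a fixed block (adjusted p = 0.0188) and with the set as a random or fixed block (0.00921 and 0.0206). It also passed without mutant distal maxilla array 1 (0.0141). In that comparison 3 of 4 bone markers were higher and 3 of 5 neuronal markers lower in the mandible. The control value was -0.72 ± 0.388 (adjusted p = 0.564), and whether the genotypes differ in this contrast was not tested. The second Foxd2 probe set was dim, above the 40th percentile on 7 of 24 arrays.

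Foxd1, the paralog of Foxd2, varied most within the maxilla. Control distal maxilla arrays measured 10.41, 7.50 and 7.56, so array 1 stood far above the others. Mutant distal maxilla arrays were at 10.72, 10.39 and 8.45, and proximal arrays at 10.19, 9.30 and 9.68 in controls and 10.90, 9.79 and 10.07 in mutants. No order of the ends held there, with the distal array higher on 2 of 6 pairs. The mutant end difference was -0.40 ± 0.621, and -0.83 without mutant distal maxilla array 1. In the mandible Foxd1 was higher distally on 6 of 6 pairs, by 0.52 to 1.35. The control mandible arrays were at 8.89, 9.55 and 9.15 distally and 8.38, 8.24 and 8.58 proximally. These did not overlap, but the differences of 0.80 ± 0.621 in control and 1.04 ± 0.621 in mutant mandible missed the threshold (adjusted p = 0.497 and 0.307). At the proximal ends Foxd1 was lower in the mandible than in the maxilla without overlap in either genotype, by -1.32 ± 0.621 in controls and -1.82 ± 0.621 in mutants, and neither was called (adjusted p = 0.44 and 0.103). Same-numbered mutant arrays deviated together in this comparison. The mutant value passed with the set as a random replicate block (adjusted p = 0.0339), missed with it as a fixed block (0.0577), and passed without control set 1 (0.0404) or the distal maxilla arrays numbered 3 (0.045).

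Foxf2, a gene known for its part in palate growth, was highest in the distal mandible. Its control distal mandible arrays measured 8.76, 9.10 and 8.39, and the mutant ones 8.64, 9.03 and 8.75. Proximal mandible arrays were at 6.91, 7.38 and 6.98 in controls and 7.01, 7.15 and 7.83 in mutants. Distal and proximal arrays did not overlap in either genotype. The difference was 1.66 ± 0.664 in control mandible (adjusted p = 0.116) and 1.48 ± 0.664 in mutant mandible (adjusted p = 0.154) in the fit of all arrays, and 1.66 ± 0.232 (adjusted p = 0.000561) and 1.48 ± 0.232 (adjusted p = 0.00111) in the fit of mandible arrays alone. The maxilla showed no such order: distal arrays were at 8.22, 7.81 and 5.52 in controls and 8.17, 7.90 and 6.24 in mutants. Proximal maxilla arrays were at 8.33, 5.73 and 6.90 in controls and 7.90, 6.10 and 6.99 in mutants. In both genotypes the low arrays were distal array 3 and proximal array 2, with end differences of 0.20 ± 0.664 and 0.44 ± 0.664. The mutant difference was 0.070 without mutant distal maxilla array 1.

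Foxf1, known for its role in mesenchyme of the gut and lung, differed little along the mandible. Mandible arrays of both genotypes and ends lay between 9.03 and 9.92. Maxilla arrays ranged from 6.63 to 9.92, and both extremes were control distal arrays, array 3 low and array 2 high. Mutant distal maxilla array 3, at 7.95, was also the lowest of its group. In the fit of all arrays no comparison called Foxf1, and without the distal maxilla arrays numbered 3 its mutant proximal jaw difference, 1.03, passed (adjusted p = 0.0393). Its end difference was -0.0034 ± 0.588 in control and 0.68 ± 0.588 in mutant maxilla. The mutant difference was 0.39 without mutant distal maxilla array 1. A second, dimmer Foxf1 probe set ran from 6.19 to 7.46. The second Foxf2 probe set was below the 40th percentile on all 24 arrays.

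**Figure D3:**
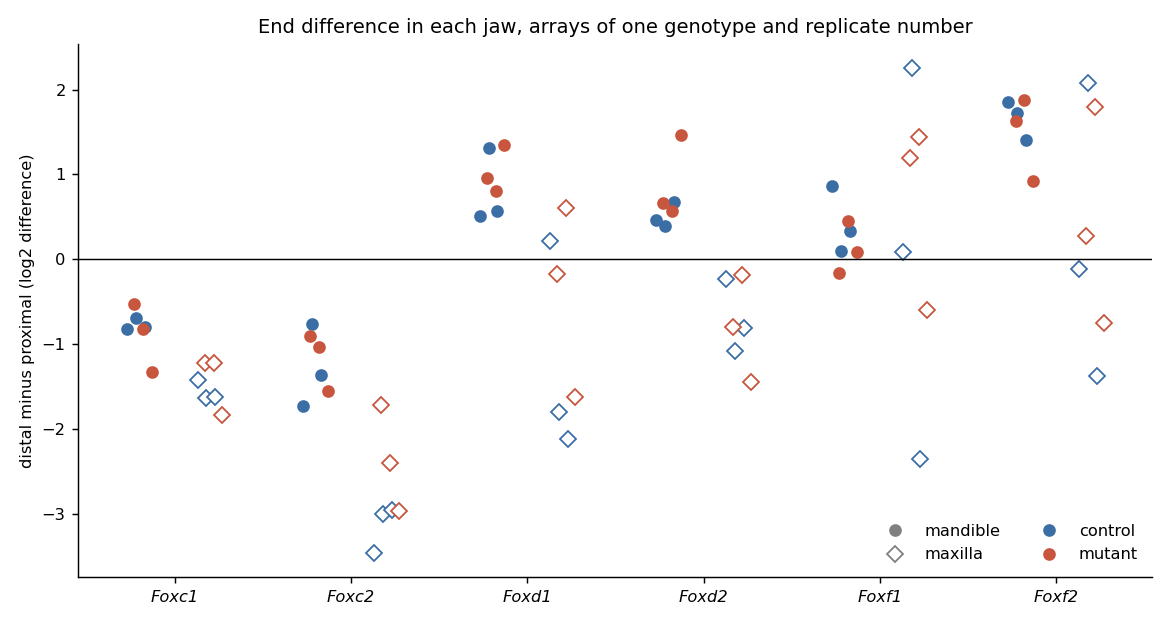
Distal minus proximal difference in log2 expression for each gene, 1 point per pair of arrays of the same genotype, jaw and number (filled mandible, open maxilla, blue control, red mutant). Foxc1 and Foxc2 lie below 0 on all 12 pairs, and Foxd2 lies above 0 on the 6 mandible pairs and below 0 on the 6 maxilla pairs.

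Between the jaws in controls, all 6 genes were higher in the distal mandible than in the distal maxilla, by 0.33 to 1.57. Of the 6, 0 were called, where 9.21% of all genes were. An unadjusted p under 0.05 (limma) was reached by 2 of 6, and by 2542 of the 13850 genes. Foxc2 had 1.32 ± 0.435 without overlap of arrays (adjusted p = 0.0693), and with the set as a fixed replicate block it passed (adjusted p = 0.0301), as it did without mutant set 1 (0.00679) and without mutant distal maxilla array 1 (0.00964). Foxf2 had 1.57 ± 0.664, also without overlap (adjusted p = 0.192). In this comparison 4 of 5 cartilage markers were higher and 6 of 6 skeletal muscle markers lower in the mandible, and their part was not tested. At the control proximal ends 0 of 6 genes were called, where 2.61% of all genes were, with values from -1.32 to 0.65. There 1 of 6 had an unadjusted p under 0.05 (limma), as had 1518 of all genes. In mutants 0 of 6 were called at the distal ends, where 4.92% of all genes were, with values from -0.39 to 1.37. There 0 of 6 had an unadjusted p under 0.05, while 2023 of all genes had. Without mutant distal maxilla array 1, the mutant distal values moved from 0.37 to 1.04 for Foxc2 and from 0.31 to 0.77 for Foxd2. They moved from 0.48 to 0.77 for Foxf1 and from 1.37 to 1.74 for Foxf2. Those of Foxc1 and Foxd1 turned from -0.18 to 0.43 and from -0.39 to 0.041, and none of the 6 was called.

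Averaged over the 4 regions, all 6 genes had higher means in mutants, as had 55.2% of all genes tested. Of the 6, Foxd2 alone passed the threshold. Foxd2 was 0.56 ± 0.194 higher (SE, adjusted p = 0.0313), a fold of 1.48. Its means over the 4 arrays of a set were 7.74, 7.47 and 7.31 in controls and 8.47, 7.80 and 7.94 in mutants, so the sets did not overlap. This was 1 of 6 members called, where 33.7% of all genes were called, 18.3% higher and 15.5% lower, so the members' share did not exceed that of all genes. The Foxd2 call was lost in several fits: with the set as a random block (adjusted p = 0.277), without mutant set 1 (0.36, adjusted p = 0.0827), without control set 2 or 3 (adjusted p = 0.106 and 0.175), and without mutant distal maxilla array 1 (0.45, adjusted p = 0.053). It was also lost with the Gapdh difference as a covariate (adjusted p = 0.157), without mutant sets 1 and 3 (0.30, adjusted p = 0.183), and with the mean of its probe sets (0.28, adjusted p = 0.0754).

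The other 5 members gave 0.51 ± 0.218 for Foxc2 (adjusted p = 0.0786), 0.55 ± 0.31 for Foxd1 (0.185), 0.26 ± 0.203 for Foxc1 (0.35), 0.23 ± 0.294 for Foxf1 (0.585) and 0.14 ± 0.332 for Foxf2 (0.775). The second Foxf1 probe set had the opposite sign, -0.19 ± 0.121. Without mutant set 1 the Foxc1 value turned to -0.022, and without control set 3 those of Foxf1 and Foxf2 turned to -0.0067 and -0.14. Foxf2 also turned without mutant set 1, to -0.0044. Without mutant distal maxilla array 1 the values were 0.34 for Foxc2, 0.44 for Foxd1, 0.10 for Foxc1, 0.15 for Foxf1 and 0.05 for Foxf2. The median of the members was 0.38, beside 0.02 over all genes tested. Foxc2 passed without mutant set 2 (0.70, adjusted p = 0.0236) and Foxd1 without control set 1 (0.80, adjusted p = 0.0409).

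No member was called in any single region by limma, where 0.895% of genes were called in the distal mandible, 5.36% in the proximal mandible, 7.08% in the distal maxilla and 5.7% in the proximal maxilla. By unadjusted p under 0.05 the counts were 0, 0, 2 and 1 of 6, where 2086, 2708, 3120 and 2970 of the 13850 genes passed. In the distal maxilla the values were 1.37 ± 0.621 for Foxd1 (adjusted p = 0.198), 1.21 ± 0.435 for Foxc2 (adjusted p = 0.102), 0.73 for Foxd2 and 0.62 for Foxf1. With mutant distal maxilla array 1 left out they were 0.93, 0.54 (adjusted p = 0.448), 0.27 and 0.33. Foxd2 had 0.83 ± 0.388 in the proximal maxilla (adjusted p = 0.223). In the distal maxilla the Foxc2 arrays did not overlap, while the Foxd1 arrays did. There Foxc2 passed without mutant set 2 (1.56, adjusted p = 0.0273) and Foxd1 without control set 1 (2.33, adjusted p = 0.0496). In the fit without mutant distal maxilla array 1, the Foxc1 value there turned from 0.52 to -0.10 and that of Foxf2 from 0.25 to -0.11. No gene of the 13850 passed the limma test for a genotype effect that differs between jaws or between ends (0% called, with 480 and 430 genes at an unadjusted p under 0.05). Of the members, 0 of 6 had an unadjusted p under 0.05 in either test.

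**Figure D4:**
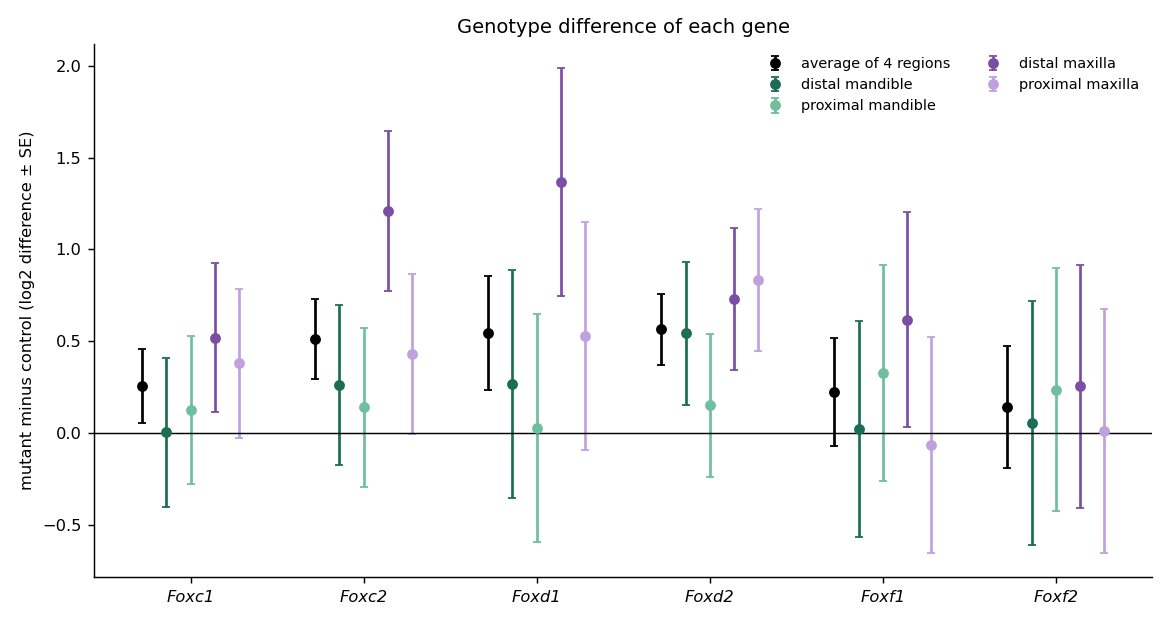
Mutant minus control difference in log2 expression for each gene, as estimate ± SE from the fit of all 24 arrays, averaged over 4 regions and in each region, with a colour for each. The 6 averages lie between 0.14 and 0.56, and the intervals of the single regions are wide.

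Pairs within a subfamily followed each other over the 24 arrays. The correlation was 0.92 between Foxc1 and Foxc2, 0.83 between Foxd1 and Foxd2 and 0.78 between Foxf1 and Foxf2. Arrays share regions and sets, so these values are descriptions with n = 24. Between Foxc and Foxd genes the sign depended on the jaw. Foxc1 and Foxd2 had -0.77 in the 12 mandible and 0.88 in the 12 maxilla arrays. Foxd and Foxf genes correlated positively in both jaws, for example at 0.78 and 0.56 for Foxd1 and Foxf2. Foxc2 and Foxf1 were negative in both, at -0.54 and -0.075. Within groups, where region and genotype are removed, the deviations of the 3 pairs within a subfamily correlated at 0.84, 0.73 and 0.81.

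Among all genes tested, those with the highest correlation with each member over the 24 arrays included its own paralog for Foxc1, Foxc2, Foxd1 and Foxd2. For Foxc1 they were Mecom (0.92), Foxc2 and Tecpr2 (0.91), and for Foxc2 Rflna (0.95), Foxc1 and Epyc (0.90), which encodes a proteoglycan of cartilage. Foxd1 was followed by Spock1 (0.87), Foxd2 and Ssbp2 (0.82), and Foxd2 by Foxd1, Syt7 and 4833439L19Rik (both 0.82). For Foxf1 the genes were Frzb (0.89), a secreted Wnt antagonist, Dipk2a (0.85) and Fendrr (0.84), a long noncoding RNA beside Foxf1 on chromosome 8. For Foxf2 they were Stk38l (0.84), Pphln1 (0.83) and Nr4a2 (0.83).

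Hedgehog genes were read beside the members, from a list of 18 symbols of which 17 were tested. In the average genotype effect 1 of 17 was called higher, Sufu, a negative regulator (0.30 ± 0.0865, adjusted p = 0.0124), and 0 lower. Of all genes 33.7% were called there. Shh, the ligand, had 0.12 ± 0.142 there, and the target genes Ptch1, Gli1 and Hhip had 0.19, 0.19 and 0.14, none of them called. The Sufu call comes from the fit that takes the arrays of a set as independent. Far fewer genes were called with the set as a random block or with 1 value per set, as given below. Between the ends of the control mandible 5 of 17 were higher distally and 1 lower, where 13.3% of all genes were called. Shh was 2.86 ± 0.285 higher (adjusted p = 4.25e-06), with arrays at 10.38 to 10.80 distally and 7.35 to 8.26 proximally. Hhip rose by 1.12, Gli2 by 0.53 and Ptch1 by 0.58, while Gli1 had 0.40 and was not called, and Dhh fell by 0.69. In control maxilla 2 of 17 were higher distally, Shh by 0.98 and Gas1 by 0.18, and Dhh was lower by -0.40. Of all genes 6.06% were called there. Between the control distal ends 3 were higher in the mandible (Shh by 2.06, Gli2 by 0.43 and Hhip by 0.78) and Scube2 was lower by -1.86. The share of all genes called there was 9.21%. At the control proximal ends 0 of 17 were called by limma, where 2.61% of all genes were. There 1 of 17 had an unadjusted p under 0.05, as had 1518 of the 13850 genes.

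Foxf2 and Shh correlated at r = 0.75 over the 24 arrays, 0.94 in the 12 mandible and 0.53 in the 12 maxilla arrays. The other 3 members introduced as hedgehog-responsive had 0.21 (Foxd1), 0.23 (Foxd2) and 0.43 (Foxf1) over the 24 arrays. In the mandible these were 0.80, 0.80 and 0.54, and in the maxilla 0.17, -0.047 and 0.46. Foxf2 correlated about as closely with the mean of the facial mesenchyme markers (0.75, and 0.96 in the mandible) and, inversely, of skeletal muscle markers (-0.77, and -0.93 in the mandible). These too are descriptions over arrays that share regions and sets. Epithelium makes Shh in the face, and 5 of 8 epithelial markers were higher in distal than proximal control mandible, as given above for the Foxc genes. Their part in the Foxf2 difference was not tested.

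Of 38 other forkhead symbols, 31 were measured and 23 tested. In the average genotype effect 3 were higher in mutants and 0 lower: Foxo1 by 0.33 ± 0.0612 (adjusted p = 0.000429), Foxo3 by 0.19 and Foxk1 by 0.09. These were 3 of 23, where 33.7% of all genes were called and 18.3% were called higher, so the share of the list did not exceed that of all genes. The 3 calls also come from the fit that takes the arrays of a set as independent. Between the control distal ends 1 was higher in the mandible, Foxa3 by 1.16, and 4 were lower, among them Foxl2 by -2.90 ± 0.363 (adjusted p = 2.98e-05), Foxp2 by -1.79 and Foxo4 by -0.53. Of all genes 9.21% were called there. Foxl2 was also lower in the mandible at the control proximal ends, by -2.03, as 1 of 23 called where 2.61% of all genes were. Along the control mandible Foxp2 and Foxo4 were lower distally, by -1.71 and -0.59, and Foxn3 was higher by 0.23. The share of all genes called there was 13.3%. Along the control maxilla limma called 0 of the 23, where 6.06% of all genes were called. There 5 had an unadjusted p under 0.05, as had 2283 of the 13850 genes.

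Of 7 chromosomal neighbours of the Foxf2 and Foxc1 or Foxf1 and Foxc2 pairs, 6 were tested and Irf4 was too dim. Gmds alone was called by genotype, at -0.23 ± 0.072 (adjusted p = 0.0177), in the same fit without a set block. Of all genes 33.7% were called there. The genotype values were 0.05 for Exoc2, -0.12 for Foxq1, -0.07 for Mthfsd, 0.12 for Fendrr and -0.04 for Foxl1. In each of the 4 control comparisons limma called 0 of 6. At an unadjusted p under 0.05 there were 2 of 6 along each jaw and 0 between the jaws at either end. Along the control mandible and maxilla 3434 and 2283 of the 13850 genes had such a p. The palate genes Fgf18, Osr1 and Osr2 gave no genotype call (limma), with -0.17, -0.022 and 0.07. Osr1 was 0.51 higher distally in control mandible (adjusted p = 0.0443), and the mandible minus maxilla value of Osr2 at the control distal ends was -0.87 (adjusted p = 0.0163).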

How the data were processed

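The deposited table holds log2 expression values of 45101 probe sets on 24 arrays, made by the authors with RMA per the submitters' processing notes. Its version and the arrays normalized together were not given in the sources at hand. The array annotation gave 34958 probe sets 1 gene symbol, 932 several and 9211 none, and the 18194 genes of the first kind entered, each through its probe set with the highest mean. Genes above the 40th percentile of the array on at least 3 arrays were kept (13850). A limma fit (version 3.58.1, R 4.3.3) had 1 coefficient for each of 8 groups of 3 arrays, with 16 residual degrees of freedom. P-values were adjusted by Benjamini-Hochberg over all kept genes, and called means an adjusted p under 0.05. The fit was tested on simulated data.

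Members and gene lists were chosen with earlier results of these data known. Named besides the members were up to 4 called genes with the smallest p of the forkhead and hedgehog lists, Shh, Ptch1, Gli1 and Hhip, all chromosomal neighbours, 3 palate genes, and the 3 genes most correlated with each member. Further called genes of a list, such as Gas1, Dhh and Foxn3, were named after their values were seen where counts were small.

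Same-numbered arrays of a genotype deviated together (every correlation of deviations over 0.1) in all end comparisons, the control distal jaw comparison and both mutant jaw comparisons. They did not in the control proximal jaw comparison (lowest 0.004) or between genotypes. That pairing comes from the data, since the labels give only a number. Alternatives were another probe set rule, no filter, repeated quantile normalization, replicate blocks (random ones with statmod 1.5.0, correlation 0.40), a Gapdh covariate, 1 value per set and left-out sets. Chosen after seeing the data were the fit of 1 jaw, 3 fits without chosen maxilla arrays, the pairing of arrays by region and number, the fixed set block and the comparison of end differences between jaws. Array number, 3 in each group, limits the precision.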

Additional observations from a re-analysis of the deposited data

Results flagged for a closer look

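The end difference of Foxc2, distal minus proximal, differed between the jaws: averaged over both genotypes it was 1.53 higher in the mandible than in the maxilla (log2 scale, limma, adjusted p = 0.0427). Foxd2 gave 1.46 in the same comparison (adjusted p = 0.0292), with higher distal levels in 6 of 6 mandible pairs and higher proximal levels in 6 of 6 maxilla pairs. Both stand here because a test of the difference between the jaws, chosen after seeing the data, passed its threshold. Neither passed without any 1 of the 3 control sets or without mutant set 3, Foxc2 also missed without mutant set 2 (0.0888), and within a single genotype 0 of 6 genes were called. The mean of both Foxd2 probe sets gave 0.64 (adjusted p = 0.135).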

How the results depend on the processing

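With the mean of all probe sets of a gene, Foxd2 changed sign, to -0.00083 for the genotype effect in the proximal mandible. In that fit Foxf1 changed sign, to 0.070 for the end difference in control maxilla, -0.032 for the genotype effect in the distal mandible and 0.037 for the jaw difference of the genotype effect. In that fit Foxf2 changed sign, to -0.041 for the end difference in control maxilla, -0.066 for the jaw difference at the control proximal ends and -0.10 for the genotype effect in the proximal maxilla. In the same fit, the number of members called became 0 for the average genotype effect and 0 for the jaw difference at the mutant proximal ends. With the set as a random replicate block, the number of members called became 0 for the average genotype effect, 1 for the jaw difference at the control distal ends, 1 for the end difference in control mandible, 1 for the end difference in mutant mandible and 2 for the jaw difference at the mutant proximal ends. With the Gapdh difference as a covariate, Foxc1 changed sign, to -0.029 for the genotype effect in the distal mandible. In that fit Foxc2 changed sign, to -0.0060 for the genotype effect in the distal mandible and -0.079 for the genotype effect in the proximal mandible. In that fit Foxf1 changed sign, to 0.26 for the genotype effect in the proximal maxilla. In that fit Foxf2 changed sign, to -0.036 for the jaw difference of the genotype effect. In the same fit, the number of members called became 0 for the average genotype effect. Without mutant sets 1 and 3, Foxc1 changed sign, to -0.17 for the genotype effect in the proximal maxilla and 0.13 for the jaw difference of the genotype effect. In that fit Foxc2 changed sign, to -0.23 for the genotype effect in the proximal maxilla. In that fit Foxf2 changed sign, to -0.88 for the genotype effect in the proximal maxilla. In the same fit, the number of members called became 0 for the average genotype effect. With 1 value per set, the number of members called became 0 for the average genotype effect. Without the maxilla arrays numbered 1, Foxc1 changed sign, to -0.050 for the genotype effect in the proximal maxilla, -0.0092 for the end difference of the genotype effect, 0.063 for the jaw difference of the genotype effect and 0.43 for the jaw difference at the mutant distal ends. In that fit Foxd1 changed sign, to 0.041 for the jaw difference at the mutant distal ends. In that fit Foxf1 changed sign, to 0.12 for the genotype effect in the proximal maxilla. In that fit Foxf2 changed sign, to -0.0061 for the end difference of the genotype effect and -0.17 for the jaw difference of the genotype effect. In the same fit, the number of members called became 2 for the average genotype effect, 4 for the jaw difference at the control distal ends, 3 for the end difference in control mandible, 4 for the end difference in control maxilla and 3 for the end difference in mutant mandible. Without the distal maxilla arrays numbered 3, Foxd1 changed sign, to 0.31 for the end difference in mutant maxilla. In that fit Foxd2 changed sign, to -0.084 for the jaw difference at the mutant distal ends. In that fit Foxf1 changed sign, to 0.95 for the end difference in control maxilla, 0.074 for the jaw difference of the genotype effect and -0.12 for the jaw difference at the mutant distal ends. In that fit Foxf2 changed sign, to -0.086 for the end difference of the genotype effect. In the same fit, the number of members called became 2 for the average genotype effect, 1 for the end difference in control mandible, 1 for the end difference in mutant mandible and 3 for the jaw difference at the mutant proximal ends. Without mutant distal maxilla array 1, Foxc1 changed sign, to -0.10 for the genotype effect in the distal maxilla, -0.30 for the end difference of the genotype effect and 0.43 for the jaw difference at the mutant distal ends. In that fit Foxd1 changed sign, to 0.041 for the jaw difference at the mutant distal ends. In that fit Foxd2 changed sign, to -0.084 for the end difference of the genotype effect. In that fit Foxf1 changed sign, to 0.041 for the jaw difference of the genotype effect. In that fit Foxf2 changed sign, to -0.11 for the genotype effect in the distal maxilla and -0.15 for the end difference of the genotype effect. In the same fit, the number of members called became 0 for the average genotype effect, 1 for the jaw difference at the control distal ends, 1 for the end difference in control mandible and 2 for the end difference in mutant mandible. After another quantile normalization, Foxc1 changed sign, to -0.0016 for the genotype effect in the distal mandible. In that fit Foxf1 changed sign, to 0.0065 for the end difference in control maxilla. With the set as a fixed replicate block within a genotype, the number of members called became 1 for the jaw difference at the control distal ends, 1 for the end difference in control mandible and 1 for the end difference in mutant mandible. In the fit of 1 jaw, the number of members called became 3 for the end difference in control mandible, 1 for the end difference in control maxilla, 5 for the end difference in mutant mandible and 0 for the end difference in mutant maxilla. With no filter on dim probe sets, the number of members called became 1 for the end difference in mutant maxilla.

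When each of the 6 sets was left out in turn, these results changed sign or call. Foxc1 ran from -0.022 to 0.44 for the average genotype effect, -0.13 to 0.14 for the genotype effect in the distal mandible, -0.10 to 0.96 for the genotype effect in the distal maxilla and -0.13 to 0.66 for the genotype effect in the proximal maxilla. Foxc1 ran from -0.70 to 0.18 for the jaw difference of the genotype effect, -0.13 to 0.22 for the end difference of the genotype effect and -0.49 to 0.34 for the jaw difference at the mutant distal ends. Foxc2 ran from -0.061 to 0.56 for the genotype effect in the distal mandible. Foxd1 ran from -0.28 to 0.23 for the genotype effect in the proximal mandible, -1.05 to 0.19 for the jaw difference at the mutant distal ends and -0.90 to 0.22 for the end difference in mutant maxilla. Foxd2 ran from -0.77 to 0.074 for the jaw difference of the genotype effect and -0.32 to 0.88 for the jaw difference at the mutant distal ends. Foxf1 ran from -0.0067 to 0.39 for the average genotype effect, -0.12 to 0.16 for the genotype effect in the distal mandible, -0.34 to 1.31 for the genotype effect in the distal maxilla and -0.50 to 0.16 for the genotype effect in the proximal maxilla. Foxf1 ran from -0.34 to 0.17 for the jaw difference of the genotype effect, -0.42 to 0.67 for the end difference of the genotype effect, -1.13 to 1.17 for the end difference in control maxilla and -0.064 to 0.86 for the jaw difference at the mutant distal ends. Foxf1 ran from -0.034 to 0.27 for the end difference in mutant mandible. Foxf2 ran from -0.14 to 0.41 for the average genotype effect, -0.13 to 0.23 for the genotype effect in the distal mandible, -0.014 to 0.40 for the genotype effect in the proximal mandible and -0.58 to 0.85 for the genotype effect in the distal maxilla. Foxf2 ran from -0.62 to 0.68 for the genotype effect in the proximal maxilla, -0.62 to 0.55 for the jaw difference of the genotype effect, -0.43 to 0.51 for the end difference of the genotype effect and -0.67 to 0.87 for the jaw difference at the control proximal ends. Foxf2 ran from -0.74 to 0.98 for the end difference in control maxilla, -0.029 to 0.94 for the jaw difference at the mutant proximal ends and -0.24 to 1.03 for the end difference in mutant maxilla. The number of members called ran from 0 to 2 for the average genotype effect, 0 to 1 for the genotype effect in the distal maxilla, 0 to 1 for the jaw difference at the control distal ends, 0 to 2 for the end difference in control mandible, 1 to 2 for the end difference in control maxilla, 0 to 1 for the jaw difference at the mutant proximal ends, 0 to 2 for the end difference in mutant mandible and 0 to 2 for the end difference in mutant maxilla.

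With the replicate number as a fixed block, all 90 results computed under it kept their direction and call, and the set as a fixed block within a genotype called Foxc2 in 3 more comparisons (adjusted p = 0.0301, 0.0236 and 0.0329). The block changed no other call of a member in those fits. The number of all genes called moved by over 1.5 times in many fits. For the average genotype effect, 4671 genes were called, against 1612 with the random set block, 80 with 1 value per set, and 2902 and 3076 without control set 1 or 3. In the distal mandible the genotype effect gave 124 genes, and between 2 and 2912 when 1 set was left out, the lowest without control set 3 and the highest without mutant set 2. It gave 889 with the Gapdh covariate, 794 without mutant sets 1 and 3, 310 with the number as a block, 17 with arrays paired by region and number, 12 in the fit of 1 jaw, 68 with no filter, and 64 and 74 without the chosen maxilla arrays. In the distal maxilla it gave 980 genes, with a range of 58 to 3414 under left-out sets and 60 to 3583 in the other fits. For the proximal maxilla the count was 789 genes, with ranges of 84 to 2617 and 64 to 2976, and for the proximal mandible 742, with 60 to 1826 and 417 to 2251. For end differences the counts were 1844 genes in control mandible (784 to 3298 over these fits), 839 in control maxilla (217 to 1707), 2202 in mutant mandible (1363 to 3943) and 713 in mutant maxilla (271 to 1601). For jaw differences they were 1275 at the control distal (498 to 2037), 362 at the control proximal (28 to 769), 681 at the mutant distal (189 to 1346) and 788 at the mutant proximal ends (519 to 1783). Where the genotype effect was compared between jaws or ends, 0 genes became at most 5. The cause of these shifts was not tested. The main limits are 3 arrays per group, unknown origin of the replicates, the scatter among maxilla arrays and 4 dim arrays of Foxf2.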
